A study of Mus musculus with 9 samples.

Results

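The 8 genes described here are Insr, Igf1r, Irs1, Irs2, Akt1, Akt2, Foxo3 and Gsk3b, which lie on the signalling route from the insulin and insulin-like growth factor receptors through phosphatidylinositol 3-kinase (PI3K) to the kinase Akt and its substrates. They were taken by name from the 24454 genes of a count table, and all 8 were present as rows. None of the 8 encodes a PI3K subunit, so those genes are described from a wider pathway list. The table holds RNA-sequencing counts from 9 libraries of mouse embryos of the outbred ICR strain, each made from 3 pooled embryos that were cultured to the 2-cell stage. In the first group of 3 libraries, embryos had a load of high glucose and were given ZGW rat serum, and the labels call this the drug group. The second group of 3 had the high glucose load only, and the third group of 3 was the control. The glucose dose, the length of exposure, what ZGW contains and whether embryos without the drug received drug-free rat serum are not stated, so the effects of serum and of drug cannot be told apart. The labels call the 3 libraries of a group biological replicates but do not say whether their embryos came from separate matings, so the p-values rest on differences among these pools, which may be technical.

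Insulin, IGF1 and IGF2 bind receptor tyrosine kinases, which phosphorylate the docking proteins IRS1 and IRS2. These recruit PI3K, whose lipid product brings Akt to the membrane, where it is activated and phosphorylates substrates that include the transcription factor FOXO3 and the kinase GSK3 beta. Akt activity itself is set by phosphorylation, which counts of RNA do not measure. In the mouse the 2-cell stage is when the embryonic genome is strongly activated and RNA stored in the oocyte is being removed, so an RNA level at this stage reflects both stored and newly made transcripts.

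Library totals ran from 11934924 to 16916343 counts. All 10 oocyte markers and all 9 measured markers of 2-cell activation had counts in every library. For the somatic cells that surround the oocyte, 15 cumulus and granulosa markers summed to between 19.3 and 25.3 counts per 1000000 (CPM) with ZGW serum, 25.7 to 42.2 CPM under high glucose and 33.8 to 42.5 CPM in control. Only 1 of these, Nr5a2, averaged at least 10 CPM. It was at 15.5 ± 1.46 CPM with ZGW serum, 24.2 ± 4.13 CPM under high glucose and 17.8 ± 11.5 CPM in control (SD, n = 3 each). Fshr, the receptor for follicle-stimulating hormone, was at 0 in all ZGW serum libraries, and Fst and Ptx3 were at 0 in all control libraries. The summed oocyte markers ran from 47330 to 62370 CPM with ZGW serum, 22200 to 32760 CPM under high glucose and 34720 to 39170 CPM in control, and those of 2-cell activation from 3988 to 10340 CPM with ZGW serum, 13060 to 20050 CPM under high glucose and 8637 to 16170 CPM in control. The 8 blood markers summed to 322.6 to 532 CPM with ZGW serum, 89.7 to 306.2 CPM under high glucose and 234.3 to 356.7 CPM in control, almost all of it from the globin genes Hba-a1 and Hba-a2. Both have the same count in every library, so the sums may hold the same reads more than once, and the globin gene Hbb-b1 averaged 0.132 CPM. Of the leukocyte markers, Cd68 averaged 8.04 CPM and Lyz2 1.78 CPM, both with counts in every library, and Ptprc had counts in only 1 of 9. The part of these marker differences in the results below was not tested.

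The kinase and substrate end of the route was well represented in these embryos and the receptor end was scarce. Akt1 averaged 34.6 CPM over the 9 libraries, Gsk3b 29.5 CPM and Akt2 27.97 CPM, above 77.7%, 75.1% and 74.3% of the genes tested. Foxo3 averaged 8.38 CPM, Irs1 4.29 CPM, Insr 2.65 CPM and Igf1r 1.32 CPM. Irs2 had 1 count among 121725216 counts of all libraries. No member passed the test in any of the 3 group comparisons. The fitted Insr level was higher with ZGW serum, 4.40-fold against high glucose and 5.17-fold against control, and that of Igf1r was 5.97-fold lower with ZGW serum than under high glucose, and none of these differences passed edgeR's quasi-likelihood test after adjustment over all genes.

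**Figure D1:**
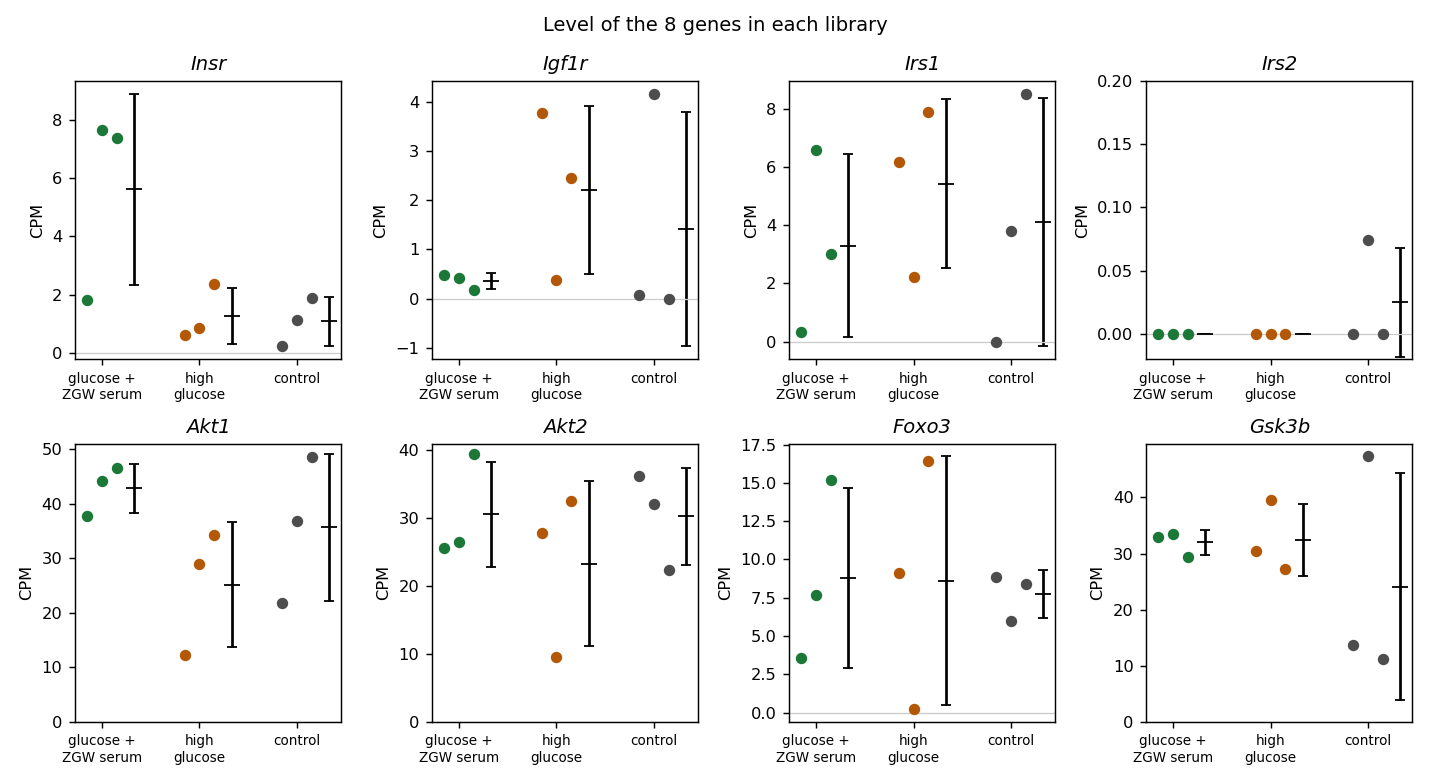
Each panel plots 1 gene in CPM (counts per 1000000 of the scaled library total) on a linear axis, with a point for each library and a bar for the mean ± SD of the 3 libraries of a group. Akt1 with ZGW serum lies between 37.8 and 46.5 CPM, above every high glucose library, while Insr and Irs1 differ several-fold between libraries of the same group, as do Igf1r and Foxo3 except in the ZGW serum group for Igf1r and the control group for Foxo3.

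Levels of different genes were compared per length, as reads per kilobase of merged exons per 1000000 counts. Akt1 stood highest at 8.43 ± 2.92 (SD, n = 9 libraries), followed by Akt2 at 3.92 ± 1.23 and Gsk3b at 3.00 ± 1.16. Foxo3 followed at 1.11 ± 0.67, Irs1 at 0.469 ± 0.346, Insr at 0.193 ± 0.206 and Igf1r at 0.0789 ± 0.0997. On this scale Akt1 exceeded Akt2 in 8 of 9 libraries and Gsk3b exceeded Foxo3 in 9 of 9. For the neighbours Akt2 and Gsk3b the mean log2 ratio, 0.42 ± 1.00 (SD, n = 9), was smaller than its SD. The mean log2 ratio of Gsk3b over Foxo3, 1.82 ± 2.07, was also smaller than its SD, although Gsk3b was higher in every library. High glucose replicate 2, with almost no Foxo3, widened that SD. The means of the 3 lower steps were smaller than their SDs as well. Foxo3 over Irs1 was at 1.56 ± 2.61 and positive in 8 of 9 libraries. Irs1 over Insr was at 1.03 ± 1.93, with Irs1 higher in 6 of 9, and Insr over Igf1r at 1.45 ± 2.42, with Insr higher in 7 of 9. All these log2 ratios had 0.01 added to each value. Means and SDs of the 3 lower steps depend on that addition, because Irs1 was at 0 in control replicate 1 and Igf1r in control replicate 3. The SDs give the scatter between libraries and do not measure whether 2 genes differ, and the order of the genes was not tested. Only the step of Akt1 over Akt2, at 1.09 ± 0.86, was larger than its SD.

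Related genes outside the 8 stood higher on the same scale. Foxo1, another forkhead factor that Akt restrains, was at 18.6 ± 5.91 reads per kilobase per 1000000 counts (SD, n = 9) and exceeded Foxo3 in 9 of 9 libraries. Gsk3b was higher than its sister gene Gsk3a, which was at 4.45 ± 1.46, in only 1 of 9 libraries. Exon lengths come from the annotation, and the transcript forms present in these embryos were not measured.

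**Figure D2:**
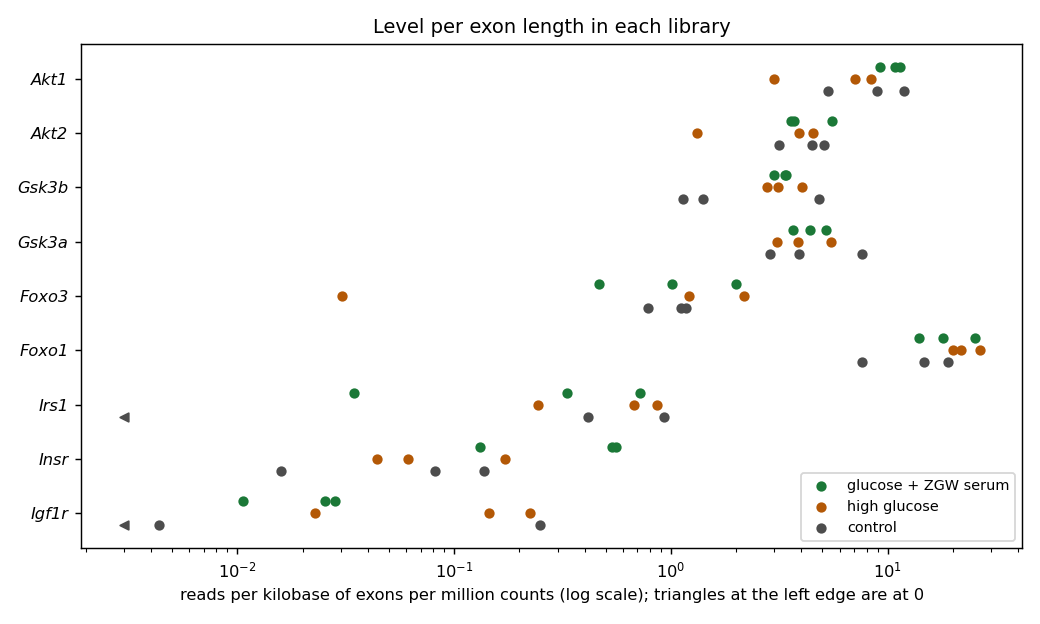
Points give reads per kilobase of merged exons per 1000000 counts on a log axis, 1 point per library, for 7 of the 8 genes and the related Gsk3a and Foxo1, with triangles at the left edge for libraries at 0. Foxo1 and Akt1 have the highest means of those plotted, while Foxo3, Irs1, Insr and Igf1r spread over more than a factor of 10 between libraries.

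Insr encodes the insulin receptor (chromosome 8, 3122061 to 3279617, minus strand, GRCm38). It had 1.81, 7.64 and 7.37 CPM with ZGW serum, 0.604, 0.845 and 2.36 CPM under high glucose and 0.219, 1.12 and 1.90 CPM in control. With ZGW serum 2 libraries stood above all high glucose and control libraries, but ZGW serum replicate 1 lay within the range of high glucose and of control. The counts behind these values were small, from 3 to 144 per library, and the exact Poisson 95% interval was 1.15 to 2.72 CPM for ZGW serum replicate 1 and 5.87 to 9.13 CPM for ZGW serum replicate 3, which covers counting error only. The log2 fold change was 2.14 ± 1.04 (SE) with ZGW serum against high glucose, with a 95% interval of -0.16 to 4.43, an unadjusted p of 0.0651 and an adjusted p of 0.594 by edgeR's quasi-likelihood test. Against control it was 2.37 ± 1.05, with an interval of 0.06 to 4.69, an unadjusted p of 0.0456 and an adjusted p of 0.496 by the same edgeR test. In bulk libraries, fewer cells with the transcript and less of it per cell cannot be told apart. Between high glucose and control the Insr level differed by 0.23 ± 1.01 on the log2 scale, with an edgeR adjusted p of 0.977.

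Igf1r encodes the receptor for IGF1 and IGF2 (chromosome 7, 67952827 to 68233668, plus strand, GRCm38). It had 0.473, 0.425 and 0.178 CPM with ZGW serum, 3.78, 0.384 and 2.44 CPM under high glucose and 0.0728, 4.17 and 0 CPM in control. All ZGW serum libraries were low, with 6, 8 and 2 counts, while high glucose held 2 high libraries and 1 low one and control held 1 high library and 2 at or near 0. The 56 counts of control replicate 2 and the 0 of control replicate 3, which allows up to 0.219 CPM, differ by far more than counting error. With ZGW serum against high glucose the log2 fold change was -2.58 ± 1.62 (SE), with a 95% interval of -6.15 to 0.99 and an edgeR adjusted p of 0.698. Against control it was -1.94 ± 1.59, with an edgeR adjusted p of 0.724, and without control replicate 2 it was 3.02. Under high glucose against control it was 0.64 ± 1.51, with an edgeR adjusted p of 0.961, and it was 5.60 without control replicate 2 and 0.00052 without high glucose replicate 1. Without control replicate 2 the control group holds 1 Igf1r count, so the size of these fitted values depends on the prior count.

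The balance of the 2 receptors within a library does not depend on library size. The log2 ratio of Igf1r to Insr counts was -1.85, -4.09 and -5.06 with ZGW serum and 2.57, -1.06 and 0.05 under high glucose, so these groups did not overlap. In control the ratio was -1.22, 1.87 and -5.73, overlapping with both, and the last of these is set by the offset because control replicate 3 had 0 Igf1r counts. The mean difference between ZGW serum and high glucose was -4.19, with means of -3.67 ± 1.64 with ZGW serum and 0.52 ± 1.86 under high glucose (SD, n = 3 each). Its exact permutation p of 0.1, two-sided, is the smallest that 3 against 3 libraries can give, and it was 0.787 adjusted over the 9 ratio tests. Those 9 include the tests of Irs2 over Irs1, a ratio set by the offset because Irs2 had 1 count in all libraries. This difference was -5.09 without ZGW serum replicate 1, -4.98 without high glucose replicate 2, -3.49 without ZGW serum replicate 3 and -3.16 without high glucose replicate 1, and the groups it compares hold as few as 2 Igf1r counts in a library. No difference from control is given for this ratio, because 1 control library is at 0.

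Irs1 encodes the docking protein that links these receptors to PI3K (chromosome 1, 82233101 to 82291416, minus strand, GRCm38). It had 0.315, 6.58 and 3.02 CPM with ZGW serum, 6.19, 2.23 and 7.90 CPM under high glucose and 0, 3.795 and 8.54 CPM in control. The 3 groups overlapped throughout, and each held a library well below the others of its group. Its log2 fold changes were -0.71 ± 1.43 (SE) with ZGW serum against high glucose, -0.31 ± 1.43 with ZGW serum against control and 0.40 ± 1.43 under high glucose against control, with edgeR adjusted p-values from 0.928 to 0.974. A predicted gene on the opposite strand, Gm9747, covers 30.9% of the exon bases of Irs1, and because the strand setting of the counting is not given, reads of the 2 genes cannot be told apart there.

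Irs2 encodes the second docking protein, which in mouse liver and pancreatic beta cells carries much of the insulin signal (chromosome 8, 10984681 to 11008458, minus strand, GRCm38). Its single count was in control replicate 2, and 8 of 9 libraries were at 0. A library at 0 allows between 0.159 and 0.266 CPM at the limit of 3 counts, depending on its size. Over all libraries the level was 0.00822 counts per 1000000, with an exact Poisson 95% interval of 0.000208 to 0.0458. Irs2 did not pass the filter on low counts and was left out of the edgeR tests. No ratio of Irs2 to Irs1 is given because one side is at 0, though its tests were kept in the adjustment over the 9 ratio tests. The remaining docking proteins were scarce as well, with Irs3 averaging 0.973 CPM and Irs4 1.46 CPM over 9 libraries.

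Akt1 and Akt2 encode the kinases at the centre of the route, of which Akt1 is linked in mice mainly to growth and survival and Akt2 to glucose handling. Akt1 (chromosome 12, 112653821 to 112674884, minus strand, GRCm38) had 37.8, 44.2 and 46.5 CPM with ZGW serum, 12.2, 28.9 and 34.3 CPM under high glucose and 21.7, 36.8 and 48.6 CPM in control. Every ZGW serum library was above every high glucose library, while control overlapped with both. The mean was 42.8 ± 4.50 CPM with ZGW serum and 25.1 ± 11.5 CPM under high glucose (SD, n = 3 each). The log2 fold change between them was 0.77 ± 0.45 (SE), with a 95% interval of -0.23 to 1.76 and an edgeR adjusted p of 0.672. Under high glucose against control it was -0.51 ± 0.45, with an interval of -1.50 to 0.49 and an edgeR adjusted p of 0.856. With ZGW serum against control it was 0.26 ± 0.45, with an edgeR adjusted p of 0.887.

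Akt2 (chromosome 7, 27591552 to 27640826, plus strand, GRCm38) had 25.6, 26.5 and 39.4 CPM with ZGW serum, 27.8, 9.45 and 32.4 CPM under high glucose and 36.2, 32.0 and 22.4 CPM in control. The groups overlapped, and the low value of high glucose replicate 2 was the only one under 20 CPM. Its log2 fold change was 0.39 ± 0.48 (SE) with ZGW serum against high glucose, -0.38 ± 0.48 under high glucose against control and 0.01 ± 0.48 with ZGW serum against control. The 95% interval of the last difference was -1.05 to 1.08, and the edgeR adjusted p-values of all 3 were between 0.870 and 0.994. Of the 50-base stretches of Akt2 transcripts, 9.76% also occur in the pseudogene Akt2-ps.

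Within a library, the balance of Akt2 to Akt1 varied least with ZGW serum. Its log2 ratio of counts was -0.56, -0.74 and -0.24 with ZGW serum, 1.18, -1.61 and -0.08 under high glucose and 0.74, -0.20 and -1.12 in control. The 3 group means overlapped within their SDs, at -0.51 ± 0.25 with ZGW serum, -0.17 ± 1.40 under high glucose and -0.19 ± 0.93 in control (SD, n = 3 each), and the exact permutation p of the 3 comparisons was between 0.7 and 1.

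**Figure D3:**
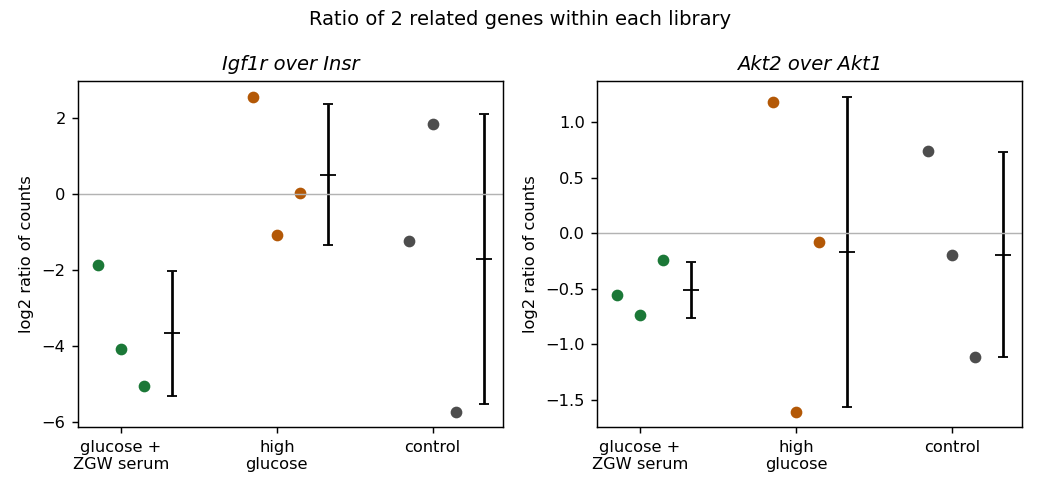
The log2 ratio of counts of Igf1r over Insr (left) and of Akt2 over Akt1 (right) is plotted for each library, with the mean ± SD of the 3 libraries of a group. On the left the 3 ZGW serum libraries lie between -5.06 and -1.85, below the 3 high glucose libraries, and the control libraries overlap with both, the lowest of them having 0 Igf1r counts.

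Foxo3 encodes a forkhead transcription factor that Akt keeps out of the nucleus and that in mouse ovary holds back the growth of resting oocytes (chromosome 10, 42181841 to 42276755, minus strand, GRCm38). It had 3.55, 7.70 and 15.2 CPM with ZGW serum, 9.14, 0.230 and 16.5 CPM under high glucose and 8.89, 5.95 and 8.39 CPM in control. Control was the narrow group, and both glucose-loaded groups reached below and above it. High glucose replicate 2 had 3 counts, an exact Poisson 95% interval of 0.0475 to 0.674 CPM, where the other high glucose libraries had 121 and 202 counts. Log2 fold changes were 0.03 ± 1.05 (SE) with ZGW serum against high glucose, 0.18 ± 1.05 with ZGW serum against control and 0.15 ± 1.05 under high glucose against control, with edgeR adjusted p-values from 0.968 to 0.997. The last of these was 0.69 without high glucose replicate 2 and -0.74 without high glucose replicate 3.

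Gsk3b encodes a kinase that inhibits glycogen synthase and marks beta-catenin for degradation, and that Akt inhibits (chromosome 16, 38089001 to 38246084, plus strand, GRCm38). It had 33.01, 33.4 and 29.5 CPM with ZGW serum, 30.5, 39.6 and 27.2 CPM under high glucose and 13.8, 47.4 and 11.2 CPM in control. The 6 glucose-loaded libraries lay close together, and in control 2 libraries were below all of them and 1 was above. Log2 fold changes were -0.02 ± 0.53 (SE) with ZGW serum against high glucose, 0.41 ± 0.53 with ZGW serum against control and 0.43 ± 0.53 under high glucose against control. The 95% interval of the first difference was -1.18 to 1.14, and edgeR's adjusted p-values of the 3 were between 0.842 and 0.997. Without control replicate 2 the difference of high glucose from control was 1.38, with an edgeR adjusted p of 0.731.

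Across the 3 comparisons, the quasi-likelihood test of edgeR, adjusted over 16964 genes by Benjamini and Hochberg's method, called 0 of the 7 members that passed the filter on low counts. The share of all tested genes called was 0% in each comparison, while 1253 genes had an unadjusted p under 0.05 between high glucose and control, 1473 between ZGW serum and high glucose and 1673 between ZGW serum and control, and DESeq2 called 129, 241 and 348 genes in these comparisons. At an unadjusted p under 0.05, 0 members stood in high glucose against control, 0 in ZGW serum against high glucose and 1, Insr, in ZGW serum against control. DESeq2 and limma-voom also called 0 members in each comparison. The libraries of the 2 groups did not overlap for 0 of 7 members between high glucose and control, where 13.7% of all genes tested had that property. Between ZGW serum and high glucose this held for 1 of 7, Akt1, against 17.3% of all genes, and between ZGW serum and control for 0 of 7, against 16.3%. Median log2 fold changes over the 7 were 0.23 for high glucose against control, 0.03 for ZGW serum against high glucose and 0.18 for ZGW serum against control, beside -0.02, 0.00 and 0.00 over all genes tested. The comparisons share libraries in pairs, so their values are given side by side only.

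**Figure D4:**
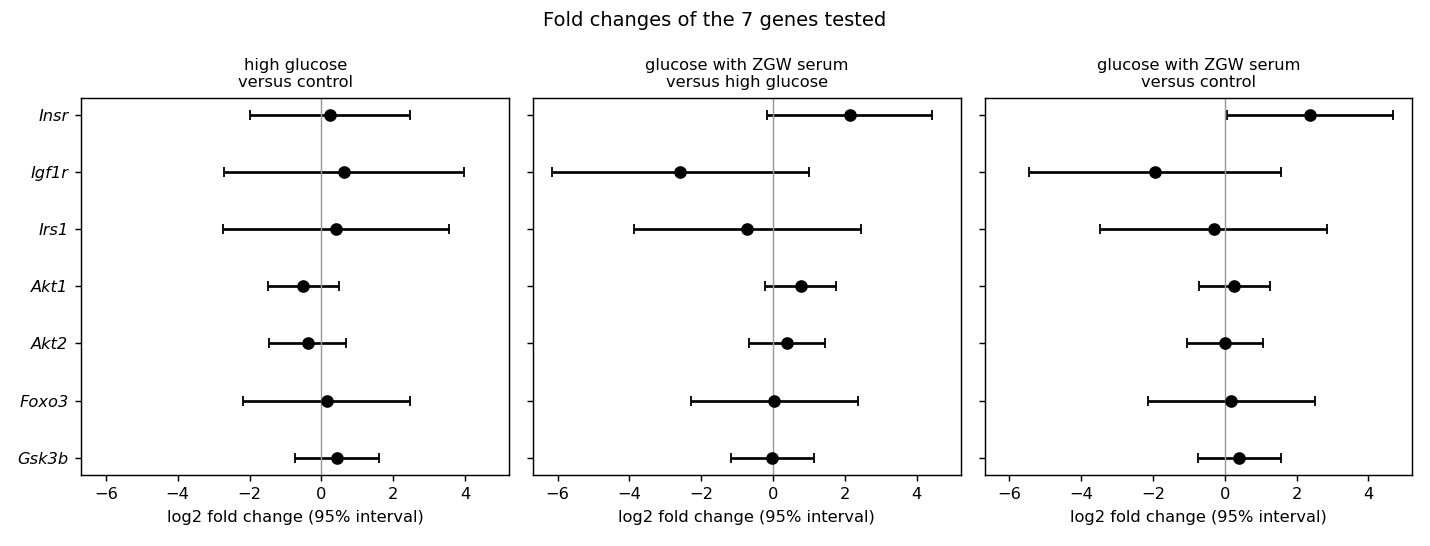
Points give the log2 fold change of each of the 7 genes tested in the 3 comparisons, and bars give the 95% interval from edgeR's quasi-likelihood fit. All intervals include 0 except that of Insr in ZGW serum against control, from 0.06 to 4.69, and those of Akt1, Akt2 and Gsk3b are the narrowest.

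The spread between libraries differed among the members. The biological coefficient of variation in the edgeR fit was 0.409 for Akt1, 0.437 for Akt2 and 0.470 for Gsk3b, below the median of 0.679 over all genes tested. That median is not restricted to genes of like level, and these members had means above 77.7%, 74.3% and 75.1% of genes. The coefficient was 0.857 for Insr and 0.871 for Foxo3, and reached 1.15 for Irs1 and 1.24 for Igf1r, which was higher than in 93.0% of genes. The SD of log2 CPM of Gsk3b was 0.10 with ZGW serum, 0.28 under high glucose and 1.12 in control, and that of Akt1 was 0.16 with ZGW serum, 0.79 under high glucose and 0.59 in control. For Akt2 the SD was 0.34 with ZGW serum, 0.96 under high glucose and 0.36 in control. Over all tested genes averaging 10 CPM or more, the median SD was 0.53 with ZGW serum, 0.43 under high glucose and 0.49 in control. These differences in spread were not tested.

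Genes with the most similar profile over the 9 libraries were ranked by the root mean square difference of centred log2 CPM, among genes of at least 10 CPM. Akt1 lay closest to Chst7 and Mprip, at 0.17 and 0.21 log2 units, where the median over 6902 genes was 0.86. Akt2 lay closest to Ly6e at 0.26 and Golga5 at 0.26, and Gsk3b to Gpatch8 at 0.31 and Dis3 at 0.32. The members that varied more between libraries had less close matches. Insr was 0.61 from both Mir678 and Uba1, Igf1r 0.83 from Dld and 0.86 from Orai1, Foxo3 0.74 from Tmem255b and 0.81 from Scp2, and Irs1 0.90 from Zfp334 and 1.01 from Smad4.

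The wider pathway was read from a list of 110 other genes, of which 100 passed the filter on low counts. Between high glucose and control 49 of them were higher and 51 lower, with 0 called in either direction by edgeR's quasi-likelihood test, 9 at an unadjusted p under 0.05 and a median log2 fold change of -0.02 beside -0.02 over all genes. Their libraries did not overlap for 7 higher and 8 lower genes. Between ZGW serum and high glucose 55 were higher and 45 lower, with 0 called, 5 at an unadjusted p under 0.05, 6 higher and 7 lower without overlap and a median of 0.07 beside 0.00. Between ZGW serum and control 54 were higher and 46 lower, with 0 called, 9 at an unadjusted p under 0.05, 10 higher and 8 lower without overlap and a median of 0.02 beside 0.00. Over all 16964 genes tested, 1253, 1473 and 1673 had an unadjusted p under 0.05 by the same edgeR test in these 3 comparisons. DESeq2 called 3 pathway genes between high glucose and control, 2 between ZGW serum and high glucose and 0 between ZGW serum and control, and these are named below. Over all genes it called 129, 241 and 348 in the same order. The shares without overlap lie near the 13.7%, 17.3% and 16.3% of all genes given above.

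Among the ligands, the growth factor Igf1 was at 8.70 ± 3.58 CPM with ZGW serum, 8.02 ± 2.59 CPM under high glucose and 8.30 ± 3.795 CPM in control (SD, n = 3 each). Ins2, an insulin gene, was at 3.70, 6.85 and 14.4 CPM with ZGW serum, 0, 5.23 and 1.71 CPM under high glucose and 2.19, 1.64 and 0 CPM in control. The ZGW serum libraries were above all control libraries and overlapped with high glucose, and the gene was not called. Igf2 was at 2.43 ± 2.24 CPM with ZGW serum, 0.329 ± 0.340 CPM under high glucose and 4.43 ± 3.76 CPM in control, and Igf2r, which clears IGF2, at 4.22 ± 2.55 CPM with ZGW serum, 3.91 ± 3.11 CPM under high glucose and 6.84 ± 8.53 CPM in control (SD, n = 3 each). Igfbp1 and Igfbp5 encode proteins that bind insulin-like growth factors. Igfbp1 was at 5.99, 0.159 and 1.42 CPM with ZGW serum, 0.0755, 0 and 0.0814 CPM under high glucose and 11.7, 16.7 and 1.82 CPM in control. ZGW serum replicate 2, at 0.159 CPM, was at its floor of 3 counts and cannot be separated from high glucose, while all control libraries were above every high glucose library. DESeq2 called the gene in both comparisons with high glucose (adjusted p = 0.0341 for ZGW serum against high glucose and 0.00135 for high glucose against control) and edgeR's quasi-likelihood test did not. Igfbp5 was at 0.158, 0.106 and 0 CPM with ZGW serum, 0, 0 and 0.0814 CPM under high glucose and 7.72, 1.56 and 2.77 CPM in control. DESeq2 called it lower under high glucose than in control (adjusted p = 0.0129). Igfbp5 is also 1 of the cumulus and granulosa markers, whose sum was 25.7 to 42.2 CPM under high glucose and 33.8 to 42.5 CPM in control. Nr5a2 had the highest mean of these, at 24.2 ± 4.13 CPM under high glucose and 17.8 ± 11.5 CPM in control (SD, n = 3 each). The other markers averaging at least 1 CPM had higher means in control. Cyp19a1 was at 2.65 ± 3.43 CPM under high glucose and 6.95 ± 9.08 CPM in control. Tnfaip6 was at 1.80 ± 2.97 and 3.44 ± 3.72 CPM, and Lhcgr at 0.213 ± 0.250 and 3.15 ± 3.28 CPM, in the same order. Of the markers averaging less than 1 CPM, Star, Amh, Inha, Inhba, Fst and Ptx3 had higher means under high glucose. Among these Star was at 1.63 ± 1.87 CPM under high glucose and 0.538 ± 0.039 CPM in control. Fshr, Has2, Foxl2 and Cyp11a1 had higher means in control. The part of such cells in the Igfbp5 difference was not tested.

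Of the 13 genes on the PI3K list, 11 passed the filter on low counts, and mean levels ran from 0.0682 CPM for Pik3r5 to 211.2 CPM for Pik3c2a. The catalytic subunit gene Pik3ca was at 54.2 ± 23.0 CPM with ZGW serum, 69.9 ± 18.2 CPM under high glucose and 42.3 ± 4.32 CPM in control (SD, n = 3 each), and its high glucose libraries were all above control, with a log2 fold change of 0.72 ± 0.36 (SE) and an edgeR adjusted p of 0.705. Pik3cd was at 72.3 ± 33.5 CPM with ZGW serum, 51.7 ± 32.1 CPM under high glucose and 31.5 ± 8.97 CPM in control (SD, n = 3 each). Its ZGW serum libraries were all above control, with a log2 fold change of 1.20 ± 0.53 (SE), an unadjusted p of 0.0450 and an edgeR adjusted p of 0.495. Pik3c2a, which encodes a class II enzyme of membrane traffic, was at 179.5, 111 and 83.9 CPM with ZGW serum, 338, 216 and 265 CPM under high glucose and 248, 219 and 239 CPM in control. All 3 ZGW serum libraries were below the other 6. Its log2 fold change with ZGW serum against high glucose was -1.13 ± 0.31 (SE), with an edgeR adjusted p of 0.418 and a DESeq2 adjusted p of 0.0474. Pdpk1, the kinase that activates Akt, was at 110.5 ± 12.8 CPM with ZGW serum, 117 ± 7.51 CPM under high glucose and 92.9 ± 11.1 CPM in control (SD, n = 3 each).

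Downstream of Akt, the translation repressor gene Eif4ebp1 was at 35.8, 37.7 and 35.1 CPM with ZGW serum, 31.0, 17.6 and 42.2 CPM under high glucose and 98.0, 86.5 and 50.3 CPM in control. Both glucose-loaded groups were below every control library, with log2 fold changes against control of -1.11 ± 0.39 (SE) with ZGW serum and -1.37 ± 0.39 under high glucose and edgeR adjusted p-values of 0.434 and 0.627. Deptor, an inhibitor of the mTOR kinase, was at 112 ± 12.5 CPM with ZGW serum, 110 ± 20.4 CPM under high glucose and 62.2 ± 18.3 CPM in control (SD, n = 3 each), above control in all 6 glucose-loaded libraries and not called. Foxo1 was at 121, 156 and 219 CPM with ZGW serum, 190, 174 and 230 CPM under high glucose and 65.9, 164 and 127 CPM in control. Its high glucose libraries were above all control libraries, at a log2 fold change of 0.73 ± 0.36 (SE) and an edgeR adjusted p of 0.697. Tcl1, whose product binds Akt and aids its activation, was the most abundant gene of the list, with 2448 ± 595 CPM with ZGW serum, 3192 ± 237 CPM under high glucose and 3251 ± 191 CPM in control (SD, n = 3 each). Its ZGW serum libraries were all below the other 6, and it was not called.

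Known targets of FOXO factors had a median log2 fold change of -0.52 under high glucose against control, beside -0.02 over all genes tested. Of 15 tested, 5 were higher, 10 lower and 0 called by edgeR, where 49.0% of all genes were higher. Of the lower ones 2 had an unadjusted p under 0.05 by edgeR's test, as had 1253 of all 16964 genes. The lower ones also include Klf6, Bcl6 and Cat, which averaged 2.49, 2.05 and 3.99 CPM, with log2 fold change SEs of 2.33, 2.05 and 1.70. The median of the targets was 0.12 with ZGW serum against high glucose, with 9 higher, 6 lower and 0 called. It was -0.34 with ZGW serum against control, with 7 higher, 8 lower and 0 called, and the median over all genes was 0.00 in both. In these last 2 comparisons 0 of the 15 had an unadjusted p under 0.05. Bcl2l11, which encodes the cell death protein BIM, was at 36.8, 48.8 and 35.9 CPM with ZGW serum, 21.7, 34.8 and 20.4 CPM under high glucose and 49.5, 88.9 and 55.0 CPM in control. The 3 groups did not overlap, and DESeq2 called the gene lower under high glucose than in control (adjusted p = 0.0410) where edgeR's adjusted p was 0.627. Map1lc3b, an autophagy gene, was at 776 ± 379 CPM with ZGW serum, 571 ± 105 CPM under high glucose and 1352 ± 466 CPM in control (SD, n = 3 each), with a log2 fold change of -1.24 ± 0.37 (SE) under high glucose against control and an edgeR adjusted p of 0.627. The mitophagy gene Bnip3, at 90.9 ± 33.5 CPM with ZGW serum and 181.5 ± 90.0 CPM under high glucose (SD, n = 3 each), overlapped between these groups.

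**Figure D5:**
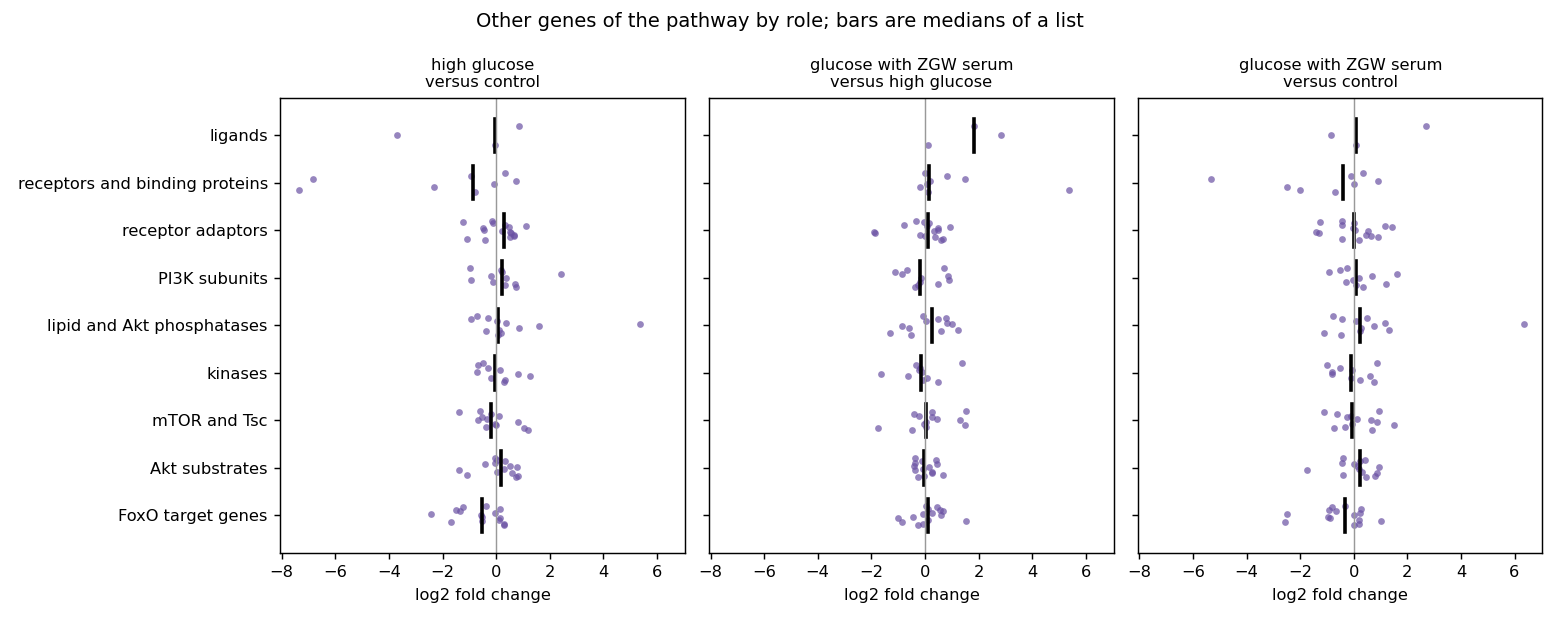
Each point is the log2 fold change of 1 pathway gene outside the 8, grouped by role, in the 3 comparisons, and black bars are the median of a list. The medians lie within 1 unit of 0 in all lists and comparisons except the 3 ligand genes in ZGW serum against high glucose, at 1.84.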

How the data were processed

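The authors deposited the counts unnormalised, as whole numbers of reads for each gene symbol. Per the submitters' processing notes, Trim Galore and mm10 were used, while the aligner, counter, annotation and strand setting are not stated in the sources used here. Groups and replicate numbers came from the labels. Members and gene lists were chosen with earlier results of these data known. All 9 libraries entered 1 quasi-likelihood fit with 1 mean per group (edgeR 4.0.16 in R 4.3.3, TMM factors, robust, minimum count of 10 in its filter), adjusted by Benjamini-Hochberg over 16964 genes with a threshold of 0.05, and the procedure was tested on simulated data. CPM are counts per 1000000 of the TMM-scaled library total. The SE is the absolute log2 fold change divided by the square root of F, and 95% intervals use edgeR's total degrees of freedom. Poisson intervals and floors of 3 counts cover counting error only. Log2 CPM profiles use a prior count of 2, ratios of counts an offset of 0.5, and log2 ratios per length 0.01 added to each value. Positions, merged exon lengths and shared 50-base stretches came from GENCODE M21 (GRCm38, the same assembly as mm10).

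All 8 members are named. Where no pathway gene passed, the rule named, from a mean of 10 CPM, the 2 genes of lowest p-value each way in each role, and ligands, receptors and binding proteins from a mean of 1 CPM, and the report gives examples of these chosen after their values were seen. Irs3, Irs4 and the per-length comparison of Foxo1 and Gsk3a were added after seeing values. For similar profiles, the 2 nearest genes from a mean of 10 CPM are named, leaving out predicted genes. Alternatives were RLE factors, DESeq2 1.42.0, limma-voom (limma 3.58.1), no filter, a filter of 10 counts in 6 libraries, fits of the 2 groups compared, a replicate block, a ratio offset of 5 and leaving out libraries. Same-numbered libraries of different groups had correlations of -0.01 to 0.10 between their deviations from group means. Of 9 libraries, 6 correlated best with one of their own number. With only 1 of 9 correlations over the limit of 0.1, the numbers were not taken as pairs in the main fit. No libraries of a group agreed within counting noise (chi-square of 50.9 to 136 per degree of freedom).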

Additional observations from a re-analysis of the deposited data

How the results depend on the processing

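No member was called in any of the 17 alternatives, whose lowest member adjusted p was 0.241 (Insr, ZGW serum against control, DESeq2). Of 21 member fold changes, 11 kept their direction throughout, those of Insr with ZGW serum among them (log2 1.61 to 2.93 against high glucose, 1.67 to 3.02 against control). For all genes DESeq2 called 129 between high glucose and control, 241 between ZGW serum and high glucose and 348 between ZGW serum and control, and 3 and 2 pathway genes in the first 2 of these. limma-voom, no filter and the filter of 10 counts in 6 libraries each called 1 gene, all for ZGW serum against control. Igf1r has fewer values than the others because some filters left it out. Of the log2 fold changes that turned sign, the cause was not tested. For Akt2 with ZGW serum against control they were -0.013 with RLE, -0.013 with DESeq2, -0.045 with limma-voom, -0.026 without a filter and -0.033 with the replicate block. For Gsk3b with ZGW serum against high glucose they were 0.029 with limma-voom, 0.0059 with the stricter filter, 0.011 in a fit of 2 groups and 0.025 with the replicate block. Foxo3 gave -1.02 with limma-voom and -0.36 with the replicate block for high glucose against control, -0.24 with limma-voom for ZGW serum against control, and -0.025 without a filter for ZGW serum against high glucose. limma-voom gave 0.37 for Igf1r and 0.10 for Irs1, both ZGW serum against control. The replicate block changed no call.

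Leaving out libraries, including control replicate 1 and ZGW serum replicate 3 together (added after the data were seen), moved log2 fold changes under high glucose against control from -0.59 to 0.88 for Insr, -0.19 to 1.48 for Irs1 and -0.74 to 0.69 for Foxo3. With ZGW serum against high glucose the range was -0.58 to 0.89 for Foxo3 and -0.14 to 0.14 for Gsk3b. With ZGW serum against control it was -2.56 to 3.02 for Igf1r, -1.33 to 0.77 for Irs1, -0.033 to 0.52 for Akt1, -0.20 to 0.16 for Akt2 and -0.44 to 0.56 for Foxo3. With high glucose against control, Igf1r ran from 0.00052 to 5.60. The log2 ratio of Igf1r to Insr differed by -5.09 to -3.16 between ZGW serum and high glucose, and by -3.32 with an offset of 5. The log2 ratio of Akt2 to Akt1 differed by -0.65 to 0.74 between high glucose and control, -1.06 to 0.33 between ZGW serum and high glucose and -0.78 to 0.14 between ZGW serum and control. Single libraries whose loss turned a sign were, for high glucose against control, high glucose replicate 3 and control replicate 1 (Insr), control replicate 1 (Irs1), and high glucose replicate 3 and control replicate 2 (Foxo3). For ZGW serum against high glucose they were ZGW serum replicate 3 and high glucose replicate 2 (Foxo3, Gsk3b). For ZGW serum against control they were control replicate 2 (Igf1r), ZGW serum replicate 1 and control replicate 3 (Irs1), and ZGW serum replicate 3 (Foxo3), and for Akt2 each of ZGW serum replicate 3, control replicate 3 and high glucose replicates 2 and 3. Akt1 turned only without the pair of libraries named above. Irs2, with 1 count in all libraries, was below what this depth can measure.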
